A study of Arabidopsis thaliana with 18 samples.

Results

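Between the arrays labelled 4 h and those labelled 0 h, rosettes of Arabidopsis thaliana Col-0 differed in single genes of several daily processes. With all arrays and without the array labelled 4 h B alike, the cold-regulated COR15A and COR15B were higher at 4 h, and the starvation-linked AKINBETA1, the sugar transporter SWEET2 and the light-signalling gene HYH were lower. The comparison took the 3 arrays labelled 4 h against the 3 labelled 0 h, 6 of the 18 arrays of a day course with 3 arrays at each of 6 times. Both groups were wild-type Col-0 plants 5 to 6 weeks old. No mutation, transgene or added agent is named, and the hours on the labels are the only thing said to separate the groups. Each array was hybridised with RNA from 15 whole rosettes pooled and frozen inside the growth chamber, and the 3 courses, lettered A, B and C, were grown separately. The time at which the lights came on is not given in the sources used here, so the hours are used as labels. Because a pool holds every cell type of the rosette, a smaller share of one cell type and less RNA per cell cannot be told apart in any value below.

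Leaves in the light fix carbon and lay part of it down as starch, and at night they degrade that starch to sugars that feed respiration and export. A circadian clock runs through this cycle: morning-expressed MYB-like factors and evening-expressed proteins such as GIGANTEA act on each other, and many output genes follow them. When carbon runs short, the kinase SnRK1 and genes of amino acid breakdown and autophagy come into play. These processes, with light signalling, cold-regulated genes and chlorophyll synthesis, set the groups of genes described here.

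The array labelled 4 h B stood apart from the other 4 h arrays. Over all tested probe sets, its log2 values correlated at a mean Pearson r of 0.9454 with the 4 h arrays of the other courses and at 0.9632 with their 16 h arrays. Array 4 h A gave 0.9568 with 4 h and 0.9579 with 16 h, and 4 h C gave 0.9468 and 0.9455. The 0 h arrays were closest to their own time, at 0.9704 for A, 0.9709 for B and 0.961 for C. Pair by pair, 4 h A correlated at 0.9582 with 4 h C and at 0.9606 with 16 h A. Array 4 h B reached 0.9554 with 4 h A, 0.9354 with 4 h C, 0.973 with 16 h A and 0.9534 with 16 h C. The array labelled 16 h B correlated at 0.9788 with 4 h A and 0.9559 with 4 h C. The labels were kept as given, and whether those of 4 h B and 16 h B had been exchanged was not tested. An exchange would change what every value with all arrays means, so results are given with all 18 arrays and without 4 h B.

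**Figure D1:**
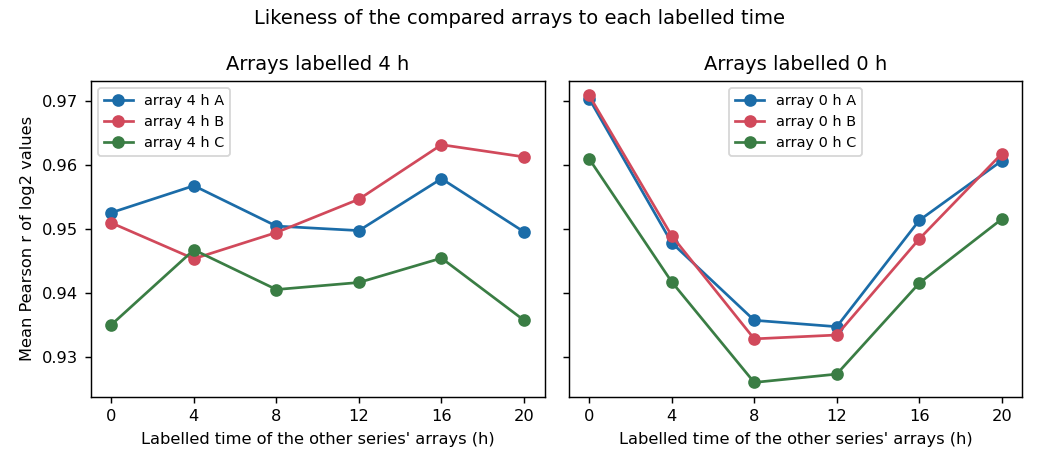
Mean Pearson r of each array's log2 values (y axis) with the arrays of the other courses at each labelled time in hours (x axis), for the arrays labelled 4 h on the left and 0 h on the right. The line of 4 h B peaks at 16 h (0.9632), while all 0 h arrays peak at 0 h.

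The deposited values were signal intensities scaled on each array, with a median over probe sets of 36.3, 35.7 and 39.8 on 4 h A, B and C, against 33.2, 33.6 and 35.7 on 0 h A, B and C. Differences were taken as 4 h minus 0 h on the log2 scale after adding 1.1 to each signal, in a limma model with time and course letter, and a probe set was called at a Benjamini-Hochberg adjusted p below 0.05 over 22746 probe sets. Over all probe sets the median difference was 0.12 on the log2 scale, and single differences are to be read against that shift. Course C had other technical values than A and B at both times. Its BioC control probe sets averaged 296.35 at 4 h and 329.7 at 0 h, against 63.35 to 82.85 on the A and B arrays, and its ubiquitin 3' to 5' signal ratio was 5.34 at 4 h and 5.12 at 0 h, against 2.14 to 2.72. The course letter is in the model, and the part of these values in the results was not tested.

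With all 18 arrays, 1460 probe sets were called, 6.42% of those tested. Of these, 812 (3.57%) were higher at 4 h and 648 (2.85%) lower. Without 4 h B the calls numbered 2393 (10.5%), with 1305 higher (5.74%) and 1088 lower (4.78%). The counts depended on the course letter in the model, since without it 617 probe sets were called with all arrays and 949 without 4 h B. Shifting every array to the same median turned the split to 475 higher and 957 lower with all arrays, and to 854 higher and 1438 lower without 4 h B, so the share of higher calls was 33.2% in place of 55.6%, and 37.3% in place of 54.5%. Leaving out other arrays also moved the count with all arrays beyond 1.5-fold, to 661 without 4 h A, 454 without 4 h C, 848 without 0 h A, 631 without 0 h B and 560 without 0 h C. The same held without 4 h B, with 1139 calls when 4 h A was also left out, 419 without 4 h C and 1533 without 0 h C.

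The 2 fits called 1260 probe sets in common, which is 86.3% of the calls with all arrays and 52.7% of those without 4 h B, and none of them changed direction. Another 1133 were called only without 4 h B, and 200 only with it. In the 1133, the signal of 4 h B lay closer to the 16 h mean of courses A and C than to their 4 h mean for 980 (86.5%), against 13631 of all 22746 probe sets (59.9%). Conversely, 16 h B lay closer to the 4 h mean of courses A and C in 901 of the 1133 (79.5%), against 13808 of all probe sets (60.7%). The first of these shares follows partly from how the 1133 were picked, and the values are given as a description. Of the 1460 calls with all arrays, 1459 had the same sign in all 3 courses, as did 9582 (42.1%) of all probe sets. This agreement follows largely from the call itself, which rests on the differences within the courses. Signals of the groups did not overlap for 2950 probe sets higher at 4 h (13%) and 1628 lower (7.16%).

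**Figure D2:**
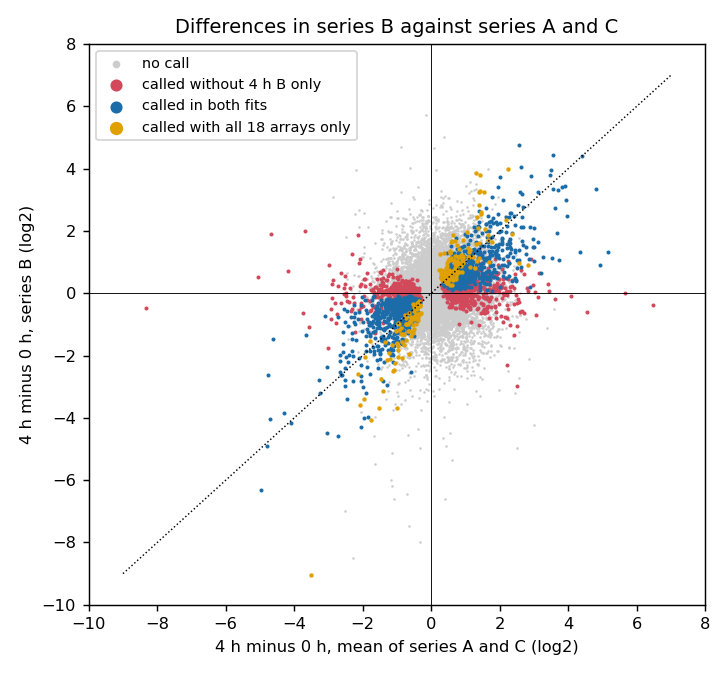
Log2 difference 4 h minus 0 h in course B (y axis) against the mean of courses A and C (x axis), a point per probe set, with the dotted line at equality. The 1133 probe sets called only without 4 h B lie along the horizontal axis, far from 0 in A and C and near 0 in B, and the 1260 called in both fits lie nearer the line.

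At 4 h, a clock-linked transcript and a light-signalling transcript were lower than at 0 h. AT1G26790, a DOF transcription factor of the photoperiod group, had signals of 0.8, 0.6 and 5.2 on 4 h A, B and C, against 141.2, 134.6 and 80.0 on 0 h A, B and C. The groups were far apart, and the log2 difference was -5.41 (SE 0.90, limma adjusted p = 0.00342). Signals this low make the difference depend on the value added before the log, and with 7.1 in place of 1.1 it was -3.75. Without 4 h B it was -5.25 (SE 1.05, adjusted p = 0.00687), and the call then ended when 4 h A was also left out (adjusted p = 0.0905). HYH, the bZIP relative of the light-signalling factor HY5, gave 69.5, 37.7 and 56.1 at 4 h, against 262.6, 271.8 and 365.6 at 0 h. All 4 h arrays were below all 0 h arrays, and HYH fell by 2.47 in log2 units (SE 0.40, limma adjusted p = 0.00305), and by 2.24 without 4 h B (SE 0.45, adjusted p = 0.00683), a call that ended without 4 h C as well (adjusted p = 0.109).

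GI, which encodes GIGANTEA, a clock-associated protein that also acts in the photoperiod pathway, turned on which array was used. Its signals were 70.0, 8.2 and 112.6 on 4 h A, B and C, against 1.7, 8.7 and 9.0 on 0 h A, B and C. The 4 h B value lay among the 0 h values, while 4 h A and C were far above them. At 16 h the signals were 16.4, 78.7 and 9.5, so that course B was the high one there. With all arrays the log2 difference was 2.69 (SE 0.98, limma adjusted p = 0.124), and without 4 h B it was 3.96 (SE 0.89, adjusted p = 0.0122). That call ended when 4 h A (adjusted p = 0.0671), 4 h C (0.148) or 0 h A (0.0579) was also left out.

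CDF5, another cycling DOF factor, had 35.5, 8.4 and 41.2 at 4 h, against 89.7, 99.5 and 105.9 at 0 h. Every 4 h array was below every 0 h array, yet the difference of -2.02 was not called (SE 0.58, limma adjusted p = 0.0537), nor was that of -1.11 without 4 h B (adjusted p = 0.128). Neither of the measured loci of the morning clock list passed the test. AT5G52660 had 56.1, 30.5 and 59.0 at 4 h, against 53.5, 64.2 and 62.6 at 0 h, and AT4G01280 had log2 differences of -0.36 with all arrays and -0.23 without 4 h B. Most loci of the clock and photoperiod lists carry no named probe set in the annotation used here.

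The carbon-starvation group was lower at 4 h for 2 of its 3 measured genes, in both fits. Over all probe sets 2.85% were called lower with all arrays and 4.78% without 4 h B. AKINBETA1, which encodes a regulatory beta subunit of the energy-sensing kinase SnRK1, gave 79.9, 127.9 and 93.8 on 4 h A, B and C, against 321.0, 297.8 and 400.4 on 0 h A, B and C. All 4 h signals were below all 0 h signals, with 4 h B the highest of the 4 h arrays. The log2 difference was -1.76 (SE 0.29, limma adjusted p = 0.00338) and -2.12 without 4 h B (SE 0.27, adjusted p = 0.000483), and no single array left out ended either call. MCCA, the biotin-carrying subunit of an enzyme of leucine breakdown, gave 55.3, 68.6 and 57.6 at 4 h, against 107.4, 110.1 and 149.9 at 0 h, again without overlap. It fell by 0.99 (SE 0.17, limma adjusted p = 0.00465), and by 1.14 without 4 h B (adjusted p = 0.00227), a call lost when 4 h C was left out too (adjusted p = 0.0552). IVD, a dehydrogenase of the same leucine pathway, was not called, with differences of 0.30 with all arrays and 0.40 without 4 h B.

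Among the 8 measured ATG genes, which build the autophagosome that carries cell material to the vacuole, 2 fell and 0 rose in either fit, where 2.85% of all probe sets were called lower with all arrays and 4.78% without 4 h B. The median log2 difference of the 8 was -0.24 with all arrays and -0.54 without 4 h B, beside 0.12 over all probe sets. ATG8 proteins are ubiquitin-like and are coupled to the growing membrane. ATG8E had 148.1, 223.4 and 71.6 at 4 h, against 435.9, 423.4 and 306.5 at 0 h, so every 4 h array was lower. Its log2 difference was -1.52 (SE 0.40, limma adjusted p = 0.0409) and -2.01 without 4 h B (SE 0.38, adjusted p = 0.00461). The first call ended without the course letter (adjusted p = 0.0608) and without any of 4 h A, 4 h C or the 0 h arrays (0.0918 to 0.217), the second when 4 h C was left out as well (0.107). ATG8C gave 191.1, 205.5 and 127.7 at 4 h, against 286.2, 278.4 and 240.2 at 0 h, which again left no overlap. It fell by 0.64 (SE 0.14, limma adjusted p = 0.0181), and by 0.80 without 4 h B (adjusted p = 0.00273). Without the course letter ATG8C was called in neither fit (adjusted p = 0.147 and 0.0862), and the call with all arrays ended without 4 h A, 4 h C, 0 h B or 0 h C (0.0793 to 0.117), that without 4 h B when 4 h C was left out too (0.0657). ATG8D and ATG8H were lower at 4 h in courses A and C and higher in course B, with no call. The remaining 4, ATG3, ATG8B, ATG8F and ATG8G, had differences between -0.53 and 0.15 and no call.

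The measured starch-synthesis genes went the other way, with 1 of 3 called higher at 4 h with all arrays and 3 of 3 without 4 h B. Over all probe sets 3.57% and 5.74% were called higher in these fits. APL3 encodes a large subunit of ADP-glucose pyrophosphorylase, the enzyme that makes the glucosyl donor for starch. It had 130.9, 68.9 and 95.7 on 4 h A, B and C, against 39.9, 23.4 and 40 on 0 h A, B and C, with no overlap. It rose by 1.48 in log2 units (SE 0.38, limma adjusted p = 0.0352), and by 1.73 without 4 h B (SE 0.42, adjusted p = 0.0189). With equal array medians the first value was 1.36 with an adjusted p of 0.0607, and that call also ended without 4 h A, 4 h C or any 0 h array (0.0662 to 0.149), the second without 4 h A, 4 h C or 0 h B (0.0584 to 0.137). APL4, a large subunit of the same enzyme, gave 30.2, 24.1 and 22.3 at 4 h, against 11.1, 12.4 and 12.4 at 0 h. Its signals did not overlap, and it was called only without 4 h B, at 1.15 (SE 0.34, limma adjusted p = 0.0487), a call lost with equal medians (0.0738), with quantile normalization (0.133), without the course letter (0.148) and without any further array (0.0634 to 0.245). SBE2.2, a starch branching enzyme, had 405.7, 340.2 and 462.3 at 4 h, against 263.8, 285.7 and 288.4 at 0 h. All 4 h arrays were higher, at 0.52 with all arrays (adjusted p = 0.0576) and 0.70 without 4 h B (SE 0.14, limma adjusted p = 0.00619), where leaving out the course letter (0.0623) or 4 h C (0.0918) ended the call.

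None of the 3 measured starch-degradation genes was called, and for 2 of them 4 h B stood apart. PWD, a dikinase that phosphorylates starch at night, had 130.8, 595.1 and 168.7 on 4 h A, B and C, against 224.4, 207.8 and 195.7 on 0 h A, B and C. Array 4 h B was the highest of the 6 and the other 4 h arrays the lowest. DPE1, the plastid enzyme that rearranges short glucans, gave 111.5, 289.9 and 138.3 at 4 h, against 84.7, 94.5 and 106.8 at 0 h, and 4 h B was again the highest, with all 4 h arrays above all 0 h arrays. For PWD the log2 difference was 0.18 with all arrays and -0.54 without 4 h B, and for DPE1 0.79 and 0.34. AMY1, an alpha-amylase, had differences of 0.13 and 0.14.

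Sugar transporters of the SWEET family let sugars leave cells or pass between compartments. Of 14 measured, 1 was called lower with all arrays, and 2 lower and 1 higher without 4 h B, where 6.42% and 10.5% of all probe sets were called. SWEET2, a member placed at the vacuole membrane, had 119.4, 105.6 and 156.2 on 4 h A, B and C, against 293.8, 343.3 and 587.8 on 0 h A, B and C. All 3 courses showed the drop without overlap, at -1.63 (SE 0.14, limma adjusted p = 4.12e-05) and -1.59 without 4 h B (adjusted p = 0.000105), and no single array left out ended either call. SWEET11, a sucrose exporter of the phloem, gave 554.3, 1191.8 and 681.1 at 4 h, against 1328.1, 1214.0 and 1802.4 at 0 h. The 4 h B signal lay just below the lowest 0 h signal, and the gene was called only without 4 h B, at -1.32 (SE 0.24, limma adjusted p = 0.00366), unless 4 h C was left out too (0.0685). SWEET13, also a sucrose carrier, had 84.8, 24.2 and 82.7 at 4 h, against 30.9, 11.9 and 27.7 at 0 h. Each 4 h array was above the 0 h array of its own course, and the difference without 4 h B was 1.82 (SE 0.54, limma adjusted p = 0.0471), lost with equal medians (0.0554) and when any other array was left out (0.0511 to 0.225). The sucrose-phosphate synthase ATSPS4F was not called, at 0.13 with all arrays and -0.17 without 4 h B.

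**Figure D3:**
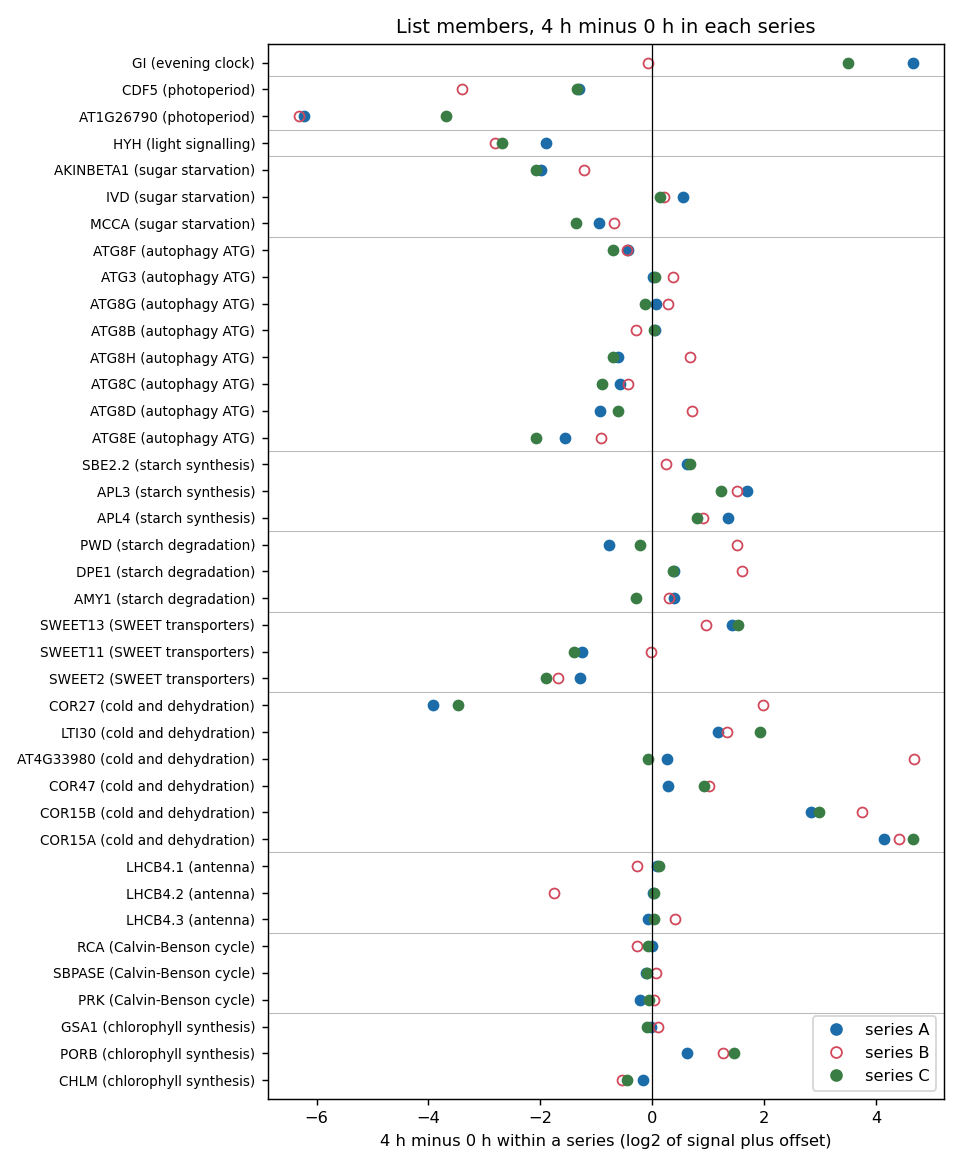
Log2 difference 4 h minus 0 h within each course (x axis, log2 of signal plus 1.1) for listed genes (y axis, with their group), filled points for courses A and C and open red points for course B. COR15A lies between 4.14 and 4.67 in all courses and AKINBETA1 below 0 in all, while GI, PWD, COR27 and AT4G33980 have course B away from the other courses.

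With all arrays, the largest rise among probe sets with 1 named gene was that of COR15A, whose product protects chloroplast membranes in freezing. COR15A had signals of 813.0, 994.6 and 907.4 on 4 h A, B and C, against 45.0, 45.5 and 34.7 on 0 h A, B and C. The 4 h arrays, 4 h B included, were all far above the 0 h arrays. The log2 difference was 4.41 (SE 0.29, limma adjusted p = 8.7e-06), and 4.43 without 4 h B (SE 0.34, adjusted p = 2.48e-05). COR15B, its close relative, gave 180.8, 591.2 and 333.8 at 4 h, against 24.4, 42.7 and 41.5 at 0 h, with 4 h B the highest. It rose by 3.19 (SE 0.30, limma adjusted p = 7.56e-05), and by 2.82 without 4 h B (adjusted p = 8.55e-05). Probe sets of such similar genes may share target RNA, which was not tested.

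Of the 6 measured cold and dehydration genes, those 2 were called higher with all arrays, where 3.57% of all probe sets were called higher. The dehydrin genes COR47 and LTI30, which encode hydrophilic protective proteins, were higher at 4 h in each course without a call, at 0.74 (adjusted p = 0.231) and 1.48 (adjusted p = 0.0768). COR27, a clock- and cold-regulated gene, gave 0.9, 74.8 and 1.5 on 4 h A, B and C, against 29.0, 18.1 and 27.7 on 0 h A, B and C. Array 4 h B was above all the 0 h arrays and the other 4 h arrays below them. The difference was -1.80 with all arrays (SE 1.35, limma adjusted p = 0.484) and -3.85 without 4 h B (SE 1.05, adjusted p = 0.0331). That call ended with 7.1 added in place of 1.1 (-2.17, adjusted p = 0.0845), without the course letter (0.0822) and without any further array (0.0765 to 0.18). AT4G33980 had 0.7, 37.2 and 0.8 on 4 h A, B and C, against 0.4, 0.4 and 0.9 on 0 h A, B and C. Array 4 h B was far above the rest, while 4 h A and C were at the 0 h level, and the gene was not called in either fit.

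Few nuclear photosynthesis genes have a named probe set, and with 6.42% of all probe sets called, no call among so few says little. None of the 3 measured LHCB4 genes, which encode a minor light-harvesting protein of photosystem II, was called. LHCB4.1 had 4642.8, 3678.5 and 7946.2 on 4 h A, B and C, against 4347.2, 4426.5 and 7287.6 on 0 h A, B and C, so the courses differed from each other more than the times did. LHCB4.2 had 3680.2, 1122.6 and 5825.8 at 4 h, against 3647.0, 3770.1 and 5712.0 at 0 h, with 4 h B the lowest of the 6 arrays. Its log2 difference was -0.57 with all arrays and 0.24 without 4 h B. The Calvin-Benson genes RCA (Rubisco activase), SBPASE (sedoheptulose-bisphosphatase) and PRK (phosphoribulokinase) differed by -0.12, -0.04 and -0.08, none called. In photorespiration HPR, the peroxisomal hydroxypyruvate reductase, differed by -0.01. AT1G80380, on the photorespiration list, gave 921.1, 1082.8 and 832.8 at 4 h, against 1067.6, 1257.3 and 1178.1 at 0 h. It was called only without 4 h B, at -0.38 (SE 0.10, limma adjusted p = 0.0289), lost without the course letter (0.12) and without 4 h A, 4 h C, 0 h B or 0 h C (0.0819 to 0.294).

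In chlorophyll synthesis PORB, the light-driven protochlorophyllide oxidoreductase, had 1195.1, 1493.1 and 1583.6 on 4 h A, B and C, against 771.9, 616.7 and 572.9 on 0 h A, B and C. All 4 h arrays exceeded all 0 h arrays, but the difference of 1.12 was not called (SE 0.34, limma adjusted p = 0.0668), nor that of 1.14 without 4 h B (adjusted p = 0.0883). The earlier enzymes GSA1 and CHLM were not called, at 0.00 and -0.39. Of the 69 genes encoded in the plastid genome, 0 were called higher and 2 lower with all arrays, beside 3.57% and 2.85% of all probe sets. The 2 were rpl33, a plastid ribosomal protein gene, and rbcL, the large subunit of Rubisco. Their signals at 4 h A, B and C were 1283.6, 1750.7 and 1347.4 for rpl33, against 1842.3, 2426.9 and 2679.7 at 0 h A, B and C. For rbcL they were 299.3, 200.8 and 588.2 at 4 h, against 347.4, 367.1 and 885.1 at 0 h, and the groups overlapped. The log2 differences were -0.66 (limma adjusted p = 0.0434) for rpl33 and -0.56 (adjusted p = 0.0315) for rbcL, and both calls ended without the course letter (0.173 and 0.712). Leaving out single arrays also ended them, for rpl33 4 h A, 4 h C or any 0 h array (0.0825 to 0.205) and for rbcL 4 h B, 4 h C or any 0 h array (0.0665 to 0.12). Of these, rpl33 alone was called without 4 h B, at -0.73 (adjusted p = 0.0357), and no longer when any further array was left out (0.0616 to 0.327). The median difference of the 69 genes was -0.19 with all arrays and -0.01 without 4 h B, beside 0.12 over all probe sets in both fits.

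The 10 largest rises and 10 largest drops with the same sign in all courses were mostly of genes known here only by a locus code. Beside COR15A and COR15B, the rises were those of AT2G03310 (3.85), AT2G39920 (3.75), AT5G43440 (3.65), AT4G16880 (3.58), AT1G76960 (3.58), AT2G28720 (3.57), AT1G70820 (3.32) and AT3G62550 (3.30). AT2G03310 had 136.1, 114.9 and 129.8 on 4 h A, B and C, against 18.5, 4.2 and 5.6 on 0 h A, B and C, with the 4 h arrays close together (limma adjusted p = 3.34e-05). AT3G62550 had 229.6, 813.9 and 462.5 at 4 h, against 47.6, 28.7 and 61.9 at 0 h, and its highest 4 h array was 4 h B (limma adjusted p = 0.00465). AT4G16880 was the weakest of them, with 74.7, 12.1 and 54.7 at 4 h, against 1.2, 6.0 and 0.9 at 0 h. Its adjusted p was 0.0288 by limma, and the call ended with 7.1 added in place of 1.1 (0.0617) and without 4 h A, 4 h C or any 0 h array (0.0518 to 0.159). The other 19 genes of the 20 kept their call whichever of the 6 arrays was left out.

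The drops were led by AT1G26790, followed by AT1G68440 (-4.15), AT1G49200 (-4.06), AT2G41250 (-3.34), AT4G15430 (-3.23), AT2G04795 (-3.11), AT4G21870 (-2.88), AT5G19120 (-2.83), AT1G64500 (-2.62) and AT1G54740 (-2.62). AT1G68440 had 53.1, 65.5 and 33.9 at 4 h, against 828.9, 960.6 and 891.0 at 0 h, with a wide gap between the groups (limma adjusted p = 0.000792). AT4G15430 had 29.8, 32.3 and 24.9 at 4 h, against 310.9, 308.0 and 228.7 at 0 h, and shared the smallest adjusted p of the 20 with COR15A (8.7e-06). Its 16 h signals were 30.7, 35.8 and 29.7, at the level of the 4 h arrays. AT1G49200 had 17.4, 68.5 and 15.8 on 4 h A, B and C, 75.1, 18.7 and 75.3 on 16 h A, B and C, and 534.1, 431.9 and 434.4 on 0 h A, B and C. It was low at both 4 h and 16 h, and array 4 h B matched the 16 h arrays of A and C while 16 h B matched the 4 h arrays of A and C.

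**Figure D4:**
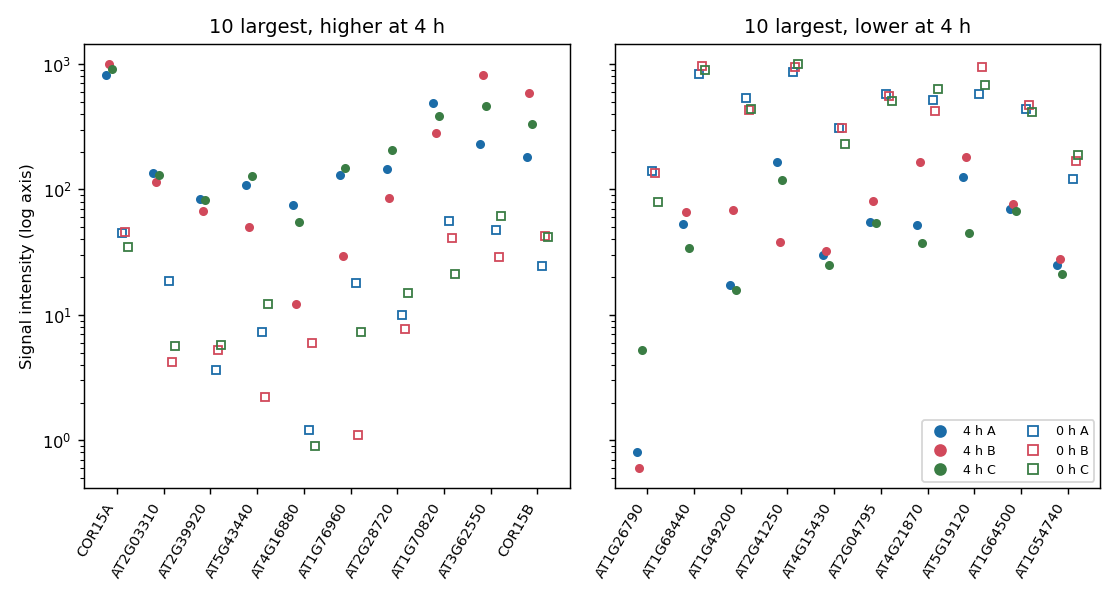
Signals (y axis, log scale) of the 10 genes with the largest rise (left) and the 10 with the largest drop (right) in the fit with all arrays, filled circles for 4 h and open squares for 0 h, coloured by course. For every gene the 4 h arrays lie wholly on one side of the 0 h arrays.

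A further 16 genes had the largest differences without 4 h B that were not among those 20. The rises were of CYP71B26 (4.73), GI (3.96), AT2G23840 (3.15), AT5G59130 (3.15), AT4G30660 (2.93), AT2G40435 (2.90), TBL26 (2.90) and AT5G62210 (2.87). CYP71B26, a cytochrome P450 oxygenase gene, had 298.8, 9.9 and 284.1 on 4 h A, B and C, against 9.0, 15.6 and 14.2 on 0 h A, B and C. Array 4 h B was at the 0 h level, and at 16 h the signals were 18.2, 272.9 and 15.4, so the high array there was B. The difference was 2.84 with all arrays (SE 1.30, limma adjusted p = 0.226) and 4.73 without 4 h B (SE 1.05, adjusted p = 0.012), lost when 4 h A (0.0788) or 4 h C (0.126) was left out as well. AT5G59130 followed the same pattern, with 183.7, 24.9 and 172.4 at 4 h, against 18.9, 24.0 and 23.4 at 0 h, and 28.8, 151.9 and 29.6 at 16 h. AT4G30660 differed from the others in being called in both fits, with 253.1, 189.1 and 358.8 at 4 h, against 44.3, 42.0 and 35.3 at 0 h (limma adjusted p = 0.000201 with all arrays).

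The drops of the same set were of AT1G18680 (-3.55), AT1G26665 (-3.09), AT1G68110 (-3.00), AT3G59350 (-2.99), AT3G15630 (-2.97), AT5G26200 (-2.90), AT3G15450 (-2.76) and AT3G19030 (-2.74). AT3G59350 had 19.7, 150.5 and 16.8 on 4 h A, B and C, against 120.7, 111.5 and 164.4 on 0 h A, B and C, and 163.1, 22.4 and 157.2 on 16 h A, B and C. The 4 h B signal lay within the range of the 0 h arrays. AT3G15630 gave 40.4, 216.7 and 24.7 at 4 h, against 195.2, 186.3 and 240.2 at 0 h, and 235.8, 26.3 and 274.0 at 16 h. AT3G15450 was called in both fits, with 234.5, 334.2 and 275.0 at 4 h, against 1077.8, 1316.6 and 2388.1 at 0 h, without overlap. Of these 16 genes, AT1G26665, AT4G30660 and AT5G59130 kept the call whichever further array was left out, and for each of the other 13 at least 1 of the remaining arrays ended it, at an adjusted p of up to 0.645 for AT5G26200 without 4 h C.

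**Figure D5:**
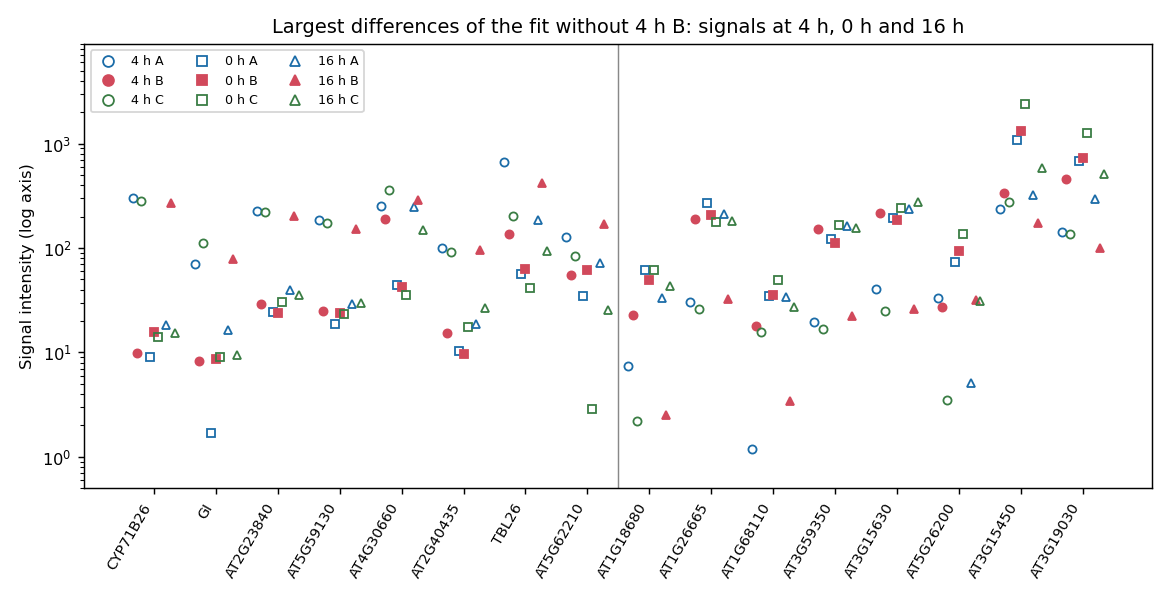
Signals (y axis, log scale) of 16 genes with the largest differences without 4 h B, circles for 4 h, squares for 0 h and triangles for 16 h, with course B in filled red. For CYP71B26, GI, AT2G23840 and AT5G59130 the 4 h B circle lies with the 0 h squares while the 16 h B triangle lies with the 4 h circles of A and C.

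Genes with a symbol of their own were also ranked, a choice made after their values were seen, so these values are a description. Among those lower without 4 h B, AAH, the allantoate amidohydrolase that releases nitrogen from ureides, had 77.3, 72.5 and 46.1 on 4 h A, B and C, against 283.2, 310.6 and 241.8 on 0 h A, B and C, a log2 difference of -2.10 with all arrays and -2.21 without 4 h B. EXGT-A3, a xyloglucan endotransglucosylase that rearranges cell wall polymers, had 450.3, 557.6 and 217.8 at 4 h, against 1289.0, 1173.7 and 819.2 at 0 h, at -1.50 with all arrays and -1.73 without 4 h B. Both genes were lower on every 4 h array. EXO, a growth-related gene responsive to brassinosteroids, had 148.4, 301.9 and 86.2 at 4 h, against 527.2, 296.1 and 250.8 at 0 h, with 4 h B inside the 0 h range. EXO differed by -1.11 with all arrays, with no call (limma adjusted p = 0.0645), and by -1.60 without 4 h B. Another 2 genes were called only without 4 h B. The calmodulin-like gene CML30 differed by -1.22 with all arrays (adjusted p = 0.0899) and by -1.82 without 4 h B, and the P450 gene CYP71B22 by -0.98 (adjusted p = 0.245) and -1.64. The CYP71B22 call ended without the course letter (limma adjusted p = 0.253) and without 0 h B (0.0547). With 4 h C left out too, a lone 4 h array remained, and the calls of CYP71B22, AAH, EXO and CML30 did not hold. bHLH121, a regulator of iron homeostasis, was called in both fits, at -1.13 with all arrays and -1.54 without 4 h B.

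Among those higher without 4 h B, CCL had 677.8, 1938.7 and 869.3 at 4 h, against 201.4, 146.4 and 179.2 at 0 h, and 2085.8, 584.1 and 2723.5 at 16 h. All arrays at 4 h were above those at 0 h, and 4 h B was nearest to 16 h A and C, with a difference of 2.58 with all arrays and 1.95 without 4 h B. AGO7, an Argonaute protein of the trans-acting small RNA pathway, had 55.4, 42.2 and 55.1 at 4 h, against 20.7, 22.0 and 6.5 at 0 h, at 1.72 with all arrays and 1.85 without 4 h B. TINY2, an AP2-type transcription factor, had 23.4, 12.5 and 55.8 at 4 h, against 1.6, 4.1 and 16.5 at 0 h, at 2.09 and 2.44. These 2 genes were higher at 4 h in every course, and for TINY2 the groups overlapped. EXPB1, a beta-expansin that loosens cell walls, had 89.5, 22.9 and 132.1 at 4 h, against 26.5, 20.2 and 33.1 at 0 h, and 4 h B was again within the 0 h range. It differed by 1.28 with all arrays, with no call (limma adjusted p = 0.26), and by 2.16 without 4 h B, a call that ended without 0 h B (0.0613). With 4 h A or 4 h C left out too, a lone 4 h array remained, and the calls of CCL, AGO7, TINY2 and EXPB1 did not hold.

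Over the gene lists as a whole, 27 of 303 measured genes were called with all arrays (8.91%, against 6.42% of all probe sets), 12 higher and 15 lower. The fit without 4 h B called 43 (14.2%, against 10.5%), 23 higher and 20 lower. Among all 13356 named genes, with 1 probe set each, 404 were called higher and 324 lower with all arrays, and 676 and 587 without 4 h B. The lists were chosen with earlier results of these data known, so their shares are a description. Of the 23 measured P450 genes 2 were higher with all arrays, CYP71B28 (0.87) and CYP51G2 (1.14, and 0.70 with 7.1 added in place of 1.1), and without 4 h B 5 were higher and 1 lower. Of 47 UDP-glycosyltransferase genes 3 were higher and 2 lower with all arrays. UGT84A3, which glucosylates hydroxycinnamic acids, had 87.1, 27.7 and 62.4 on 4 h A, B and C, against 12.4, 9.2 and 16.2 on 0 h A, B and C. It rose by 2.02 (SE 0.39, limma adjusted p = 0.00774), where without 4 h C the adjusted p was 0.0549, and by 2.46 without 4 h B. UGT80B1, a sterol glucosyltransferase, rose by 0.97 with all arrays and 0.92 without 4 h B, and UGT76E11 by 0.96 and 1.15. UGT76C2, which inactivates cytokinins, fell by 0.92 with all arrays and by 1.14 without 4 h B, and UGT74D1, which acts on auxin metabolites, fell by 0.68 and by 0.59. The calls of CYP71B28, CYP51G2, UGT76E11 and UGT74D1 ended without the course letter (adjusted p = 0.0705, 0.435, 0.109 and 0.209), and single arrays ended more of them. Those were any array but 4 h B for CYP51G2 and UGT76C2 (0.0562 to 0.143), 4 h A, 4 h C, 0 h A or 0 h B for UGT76E11 (up to 0.102), and 0 h B or 0 h C for UGT74D1 (up to 0.0626).

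The tau glutathione transferases, which conjugate glutathione to small molecules, had 1 of 11 called higher and 1 lower in each fit, where 3.57% and 2.85% of all probe sets were called so with all arrays and 5.74% and 4.78% without 4 h B. GSTU20 had 1519.9, 981.7 and 1844.9 at 4 h, against 733.5, 626.8 and 862.2 at 0 h, and GSTU18 had 282.6, 281.0 and 248.5 at 4 h, against 593.9, 532.4 and 519.8 at 0 h. GSTU20 rose by 0.93 (limma adjusted p = 0.00654, and 0.0516 without 4 h C) and GSTU18 fell by 1.02 (limma adjusted p = 0.000172), with no overlap of the groups for either. Without 4 h B the differences were 1.15 for GSTU20 and -1.08 for GSTU18. Among 8 aldehyde dehydrogenases, which detoxify reactive aldehydes, ALDH3F1 rose by 0.83 (limma adjusted p = 0.0221), a call that ended without 4 h A, 4 h C, 0 h B or 0 h C (0.0883 to 0.135). ALDH7B4 was called only without 4 h B, at 1.19 (limma adjusted p = 0.00204). Of 20 beta-glucosidases BGLU44 rose by 1.24 and BGLU25 by 0.45, with adjusted p-values of 0.0252 and 0.0366 by limma. BGLU25 lost the call with equal medians (0.154) and without the course letter (0.205), and both genes lost it without any of 4 h A, 4 h C, 0 h B or 0 h C (0.0555 to 0.156), BGLU25 also without 0 h A (0.0512).

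The bZIP, Aux/IAA, PUB and WRKY lists each had 1 call or 0 with all arrays, where 6.42% of all probe sets were called. BZIP53, a bZIP factor linked to low-energy responses, had 189.6, 208.7 and 164.0 at 4 h, against 358.8, 333.9 and 256.6 at 0 h and was the 1 called of 14 genes with a bZIP symbol, a list that leaves out HYH. It fell by 0.74 (SE 0.15, limma adjusted p = 0.0125), and by 0.83 without 4 h B. IAA18, an Aux/IAA repressor of auxin signalling, was the 1 called of 7 and fell by 0.76 (SE 0.16, limma adjusted p = 0.0125), and by 0.93 without 4 h B. PUB22, a U-box ubiquitin ligase of stress and immune responses, was the 1 called of 9, at -1.63 (limma adjusted p = 0.0494), with signals of 2.8, 8.3 and 2.0 at 4 h, against 13.8, 11.2 and 17.4 at 0 h. At such dim signals the offset mattered, and with 7.1 added in place of 1.1 it was -0.92. Without 4 h B PUB22 differed by -2.22. The BZIP53 call ended without 4 h C, 0 h A or 0 h B (0.0614 to 0.0847), that of IAA18 without 4 h A, 4 h C, 0 h A or 0 h C (0.0511 to 0.0864), and that of PUB22 without any array but 4 h B (0.0944 to 0.229) and without the course letter (0.0782). None of 6 WRKY factors was called with all arrays, and WRKY47 (-0.92) was called lower without 4 h B. None of 10 alpha-expansins was called in either fit, with differences between -0.46 and 0.54 with all arrays. Of 9 XTH genes only XTH32 was called, without 4 h B (1.28), and not when any other array was left out (0.0639 to 0.213).

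Further families were picked after their values were seen and are given as counts and values. Over all probe sets 3.57% were called higher and 2.85% lower with all arrays, and 5.74% and 4.78% without 4 h B. Of 7 chaperone genes 3 were called higher with all arrays and 4 without 4 h B. Fes1B, related to the exchange factors of Hsp70, had 103.7, 135.6 and 108.7 on 4 h A, B and C, against 20.9, 23.9 and 21.4 on 0 h A, B and C, a log2 difference of 2.33 with all arrays, and it was called without 4 h B too (limma adjusted p = 0.00381). Every 4 h array was far above the 0 h arrays. Hop2 and Hop3, which link Hsp70 to Hsp90, differed by 0.88 and 2.18 with all arrays and by 1.02 and 2.74 without 4 h B. The signals of Hop3 were 2.6 to 13.1 at 4 h, against 0.3 to 0.9 at 0 h, below the offset, and with 7.1 added its difference without 4 h B was 1.16. Of 12 nuclear RNA polymerase subunit genes 2 were called higher with all arrays, NRPA1 of RNA polymerase I (1.39, and 1.73 without 4 h B) and NRPC2 of RNA polymerase III (0.70, and 0.80 without 4 h B), and NRPA2 was called only without 4 h B (0.75). In that fit the calls of NRPA1, NRPC2 and NRPA2 ended without the course letter (limma adjusted p = 0.172, 0.097 and 0.0825). That of NRPC2 also ended with equal medians (0.0513) and without 0 h A (0.101) or 0 h C (0.0893). With 4 h C left out too, a lone 4 h array remained, and the calls of Fes1B, Hop2, Hop3, NRPA1, NRPA2 and NRPC2 did not hold. Of 15 GH9 endoglucanase genes 2 were called higher with all arrays, and GH9C2 had 604.1, 406.9 and 647.3 at 4 h, against 207.8, 217.8 and 154.9 at 0 h, at 1.50 with all arrays and 1.86 without 4 h B. Of 22 TBL genes, which act in wall polysaccharide acetylation, TBL37 was called lower with all arrays (-1.34) and without 4 h B (-1.63). The TBL37 call without 4 h B did not hold with 4 h C left out too. UBC28, a ubiquitin-conjugating enzyme gene, had 976.3, 1501.6 and 1080.7 at 4 h, against 2236.1, 1997.3 and 2518.0 at 0 h and was called lower in both fits, at -0.94 with all arrays and -1.21 without 4 h B.

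Marker and reference genes were mostly without a call. Of 3 root markers none was called. PYK10, a root and hypocotyl beta-glucosidase, had 204.6, 127.4 and 184.4 on 4 h A, B and C, against 218.1, 244.6 and 182.6 on 0 h A, B and C. The root-hair expansin EXPA7 was between 2.6 and 13.1 at 4 h, against 5.8 and 9.3 at 0 h, and EXPA18 between 18.1 and 30.6, against 14.5 and 19.3. Leaf genes such as LHCB4.1 and RCA were bright on all 6 arrays, and no member of the flower and seed marker lists has a named probe set. Of 5 genes often used as references, PEX4, a peroxisomal ubiquitin-conjugating enzyme, was called lower without 4 h B, at -0.49 (limma adjusted p = 0.0262), and not when any other array was left out (0.0559 to 0.184). The other 4 differed by -0.23 to 0.25 with all arrays.

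The genes that differed between 4 h and 0 h mostly stayed apart from 0 h through 12 h. The 1305 probe sets called higher in the fit without 4 h B had a median log2 difference from 0 h of 0.90 at 4 h, 0.82 at 8 h, 0.77 at 12 h, 0.43 at 16 h and 0.28 at 20 h, in means that leave out 4 h B and 16 h B. The mean signal of 689 of them peaked at 4 h, that of 341 at 8 h and that of 255 at 12 h, and in 1045 it was lowest at 0 h. For the 1088 called lower, the median was -0.89 at 4 h, -0.87 at 8 h, -0.86 at 12 h, -0.35 at 16 h and -0.22 at 20 h. Their mean signal reached its minimum at 4 h in 489, at 8 h in 290 and at 12 h in 295, and its maximum at 0 h in 855. The probe sets were chosen by their 4 h and 0 h values, and all these differences share the 0 h arrays, so they are a description with no test.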

How the data were processed

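Biotin-labelled cRNA from pooled rosettes was hybridised to Affymetrix arrays. The authors deposited 1 signal intensity per probe set and array, on a linear scale. Per the submitters' processing notes the tool was MAS5, of unstated version. From the values, each array had been scaled to a trimmed mean near 100 (2% trimmed at each end). Of 22810 probe sets, 64 controls were left out. Genes were named through the platform annotation, updated by Entrez ID to RefSeq names (TAIR10.1): 13513 probe sets had 1 gene, 503 several and 8730 none here, and 13436 of the 13513 matched by Entrez ID. For 146 genes with over 1 probe set, the one with the highest mean signal over all arrays stood for the gene.

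Signals were taken as log2 of the value plus 1.1, the 10th percentile of all values, which understates differences of dim genes. Limma 3.58.1 in R 4.3.3 was fitted over all probe sets with 6 times and the course letter (10 residual degrees of freedom, or 9 without 4 h B), with a variance trend and Benjamini-Hochberg adjustment. Both fits share all other arrays. The course letter pairs the arrays because the courses were grown separately, per the design text, and deviations from the time means of the 4 h and 0 h arrays of a letter correlated at 0.131 for A, 0.11 for B and 0.337 for C. The highest correlation with another letter was 0.0862 for A, 0.145 for B, above that with its own letter, and -0.185 for C. Arrays of a course are separate pools of 15 rosettes. With the course letter in the model, p-values measure the scatter left after time and course, pooled over the 6 times. The spread between the 3 courses is taken up by the letter. No array duplicated another. On simulated data with 200 changed of 22746 probe sets, the fit with all arrays recovered 70% of changes of log2 1 and 95% of log2 2, with 165 true and 9 false calls, and without 4 h B 68% and 91%, with 159 and 10. The changed probe sets were drawn from those at or above the median mean log2 signal, with independent normal noise. Only the 4 h arrays changed, and 4 h B changed like the others. These rates therefore do not cover dim genes or an array unlike its group.

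Named genes were the 10 largest differences each way with all arrays and the same sign in each course, the 8 largest each way without 4 h B not among those, and all list members. The members and lists were chosen with earlier results of these data known. The 5 families named as picked after their values were seen, and the ranking of genes with a symbol, came later still. Of 293 loci on the lists fixed by locus, 53 had a named probe set. Lists with none measured were nitrate and sulphate assimilation, flower and seed markers, mitochondrially encoded genes, MYB, B-box, SAUR and ERF genes and aquaporins. Lists without a call in either fit and not described in the results were phenylpropanoid and flavonoid (1 measured, median 0.69), auxin and shade growth (3, -0.36), heat shock (2, 0.26), defence and jasmonate (1, -0.36), touch and early response (1, -0.08) and iron deficiency (1, -0.50). Alternatives were other scalings, offsets, filters, models and left-out arrays. Promoter and protein sequences were not used here.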

Additional observations from a re-analysis of the deposited data

How the results depend on the processing

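No called gene in the tally reversed its direction in the fits tried, over 922 comparisons of 44 genes with all arrays and 1421 of 84 genes without 4 h B. With all arrays the tally held the 20 largest differences and called members of the lists, but not of the families picked later. Without 4 h B it held the genes ranked in that fit and called members of all lists. Dropping the variance trend, filtering dim signals or requiring a minimum size left each difference unchanged. These settings could not reverse a sign. With all arrays, neither could dropping the course letter, using the 6 compared arrays alone or leaving out 16 h B. The ranked genes were picked for an equal sign in the courses used, and 1459 of the 1460 calls with all arrays had one. That left little room for a reversal when an array or course was left out, so the tally says little about robustness. Genes without a call were outside that tally, and PWD, LHCB4.2 and ATSPS4F turned sign between the fits, at 0.18, -0.57 and 0.13 with all arrays and -0.54, 0.24 and -0.17 without 4 h B. With all 18 arrays 1460 probe sets and 27 list genes were called. Without the course letter as a block these were 617 and 17, with the 6 compared arrays alone and the block 156 and 8, and with a log2 difference of at least 1 in addition 567 and 13. Without a variance trend 894 probe sets were called. Without 4 h B and 16 h B the counts were 2755 and 47, and without the B arrays of 4 h, 8 h, 12 h and 16 h, a choice made after seeing the data, 3405 and 57. Leaving out 1 array or 1 course gave 51 (course C) to 3159 (course B) probe sets and 4 to 56 list genes. Without 4 h B 2393 probe sets and 43 list genes were called. Without the course letter as a block these were 949 and 26, and with a log2 difference of at least 1 in addition 1089 probe sets. Leaving out a further 4 h or 0 h array, or course A or C, gave 8 (course C) to 1789 probe sets and 1 to 31 list genes, and leaving out 16 h B gave 2755 and 47. Where course A or C was left out there, only 1 pair remained, and the lone 4 h array was assumed to vary like the other groups. The causes were not tested. The other scalings, offsets and the dim-signal filter kept both counts within 1.5-fold of the values above, and scaling to equal medians moved the split of directions as given in the results. Of the called genes, 26 of 44 with all arrays and 17 of 84 without 4 h B kept their call whichever of the compared arrays was left out. The number of arrays limits the precision, and the values used here hold no detection call, so differences of signals near the offset are not bounded by background.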
